A study of Homo sapiens with 6 samples.

Results

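The mitosis genes are a set of 40 genes that were chosen by their symbols for their roles in the G2/M transition, the kinetochore and the spindle checkpoint, with the kinesins left out. All 40 were found in the RNA-seq count table of K562 cells, 1 row each, among 61661 rows. All 40 also passed the filter on low counts, UBE2C through its reads in the knockdown libraries, and belong to the 17686 genes tested. The rule itself uses gene symbols and no measured value, but the list was drawn up with earlier results of these data known. K562 is an established line of chronic myeloid leukemia in blast phase, grown in suspension. The 6 libraries fall into 3 groups of 2: shCTR cells, which carried a control shRNA of nonsense sequence, shMETTL3 cells and shMETTL14 cells. METTL3 and METTL14 form the core of the enzyme complex that writes N6-methyladenosine (m6A) into mRNA, and the series asked which pathways changed when either was depleted. According to the study's methods, the control and METTL3 shRNAs were driven by a U6 promoter in a lentiviral vector that also encodes GFP and puromycin resistance; the METTL14 construct is not described in the sources used here. The control is labelled wild type, and all groups were collected in logarithmic growth. Nothing states that the 2 libraries of a group came from separate transductions or cultures, so p-values measure only the spread between these libraries, which may be technical.

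Mitosis begins when CDK1 bound to cyclin A or B is freed from inhibitory phosphate groups, which WEE1 and PKMYT1 add and the CDC25 phosphatases remove. Chromosomes are then captured at kinetochores, the spindle checkpoint holds anaphase back until every chromosome is attached, and the anaphase-promoting complex (APC/C) with CDC20 destroys securin and cyclin B. Most of these genes are repressed in resting cells by the DREAM complex and switched on late in the cell cycle by B-MYB and FOXM1, so that their mRNAs mark cycling cells. In bulk RNA, fewer cells in G2 and mitosis and less RNA per cell cannot be told apart.

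The promoters of the set shared short sequence elements that the choice of genes had not used. RefSeq windows (GRCh38.p14) from 250 bases before to 50 bases after the transcription start were at hand for 32 of the 40 genes, as 43 windows; AURKA, BIRC5, BUB3, FOXM1, TPX2, TTK, UBE2C and WEE1 had none. The cell-cycle gene homology region, the element bound by DREAM and B-MYB complexes, was searched as TTTGAA and TTTAAA, and the NF-Y box as CCAAT, each on both strands. TTTAAA reads the same on either strand. The letters of the homology region stood in 72.1% of the members' windows, against 24.0% of all 35116 RefSeq windows and 17.4% of those of genes tested. An NF-Y box stood in 76.7% of the members' windows and in 34.6% of all windows. Counted by gene, 26 of 32 had the homology region, 27 had an NF-Y box and 20 had both; AURKB, BUB1, CCNA2, CDC25A, NEK2 and SPC24 had no homology region, and ANLN, BUB1B, CENPE, NDC80 and NUF2 no NF-Y box. At least 2 NF-Y boxes were found in 51.2% of member windows and in 10.8% of all windows. In the narrower stretch from 100 bases before to 50 after the start, the homology region remained in 65.1% of member windows against 11.2% of all. The median position of the matches was -30 for the homology region and -82 for the NF-Y box, counted from the start.

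Stretches of 140 bases, from 130 before the start to 10 after it, are shown for CCNB2 and PLK1, which have both elements and whose levels did not pass the test in any comparison, and for 3 genes that passed it, CDC25A, CENPA and ESPL1. Each is written 5′ to 3′ along the gene's own strand, from RefSeq on GRCh38.p14, with matches to either element in capitals (an NF-Y box on the other strand reads ATTGG).
CCNB2, chr15:59105016-59105155, plus strand: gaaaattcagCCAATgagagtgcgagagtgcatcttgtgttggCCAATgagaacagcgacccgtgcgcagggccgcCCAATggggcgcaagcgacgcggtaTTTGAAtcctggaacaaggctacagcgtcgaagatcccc
PLK1, chr16:23678759-23678898, plus strand: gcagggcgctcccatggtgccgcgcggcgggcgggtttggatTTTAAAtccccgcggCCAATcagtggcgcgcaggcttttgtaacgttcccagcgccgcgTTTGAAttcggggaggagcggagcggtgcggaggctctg
CDC25A, chr3:48188408-48188547, minus strand: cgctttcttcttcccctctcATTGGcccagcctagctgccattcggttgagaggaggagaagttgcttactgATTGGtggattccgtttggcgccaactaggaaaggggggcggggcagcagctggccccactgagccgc
CENPA, chr2:26785926-26786065, plus strand: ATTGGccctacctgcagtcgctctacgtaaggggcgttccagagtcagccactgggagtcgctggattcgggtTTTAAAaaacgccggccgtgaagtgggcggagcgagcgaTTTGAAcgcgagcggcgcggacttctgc
ESPL1, chr12:53268169-53268308, plus strand: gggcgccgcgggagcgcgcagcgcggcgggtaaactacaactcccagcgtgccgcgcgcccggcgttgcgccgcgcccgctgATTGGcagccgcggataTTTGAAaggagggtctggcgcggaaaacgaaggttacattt
CCNB2 held 3 NF-Y boxes at -120, -87 and -54 and the homology region at -29. PLK1 held the homology region at -88 and -29 with an NF-Y box between them. The CDC25A window had 2 NF-Y boxes, at -110 and -58, and no match to the homology region, while CENPA had 2 such matches, at -57 and -18, and ESPL1 had 1, at -31. A match of letters is a description of these windows and was not tested as a binding site.

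**Figure D1:**
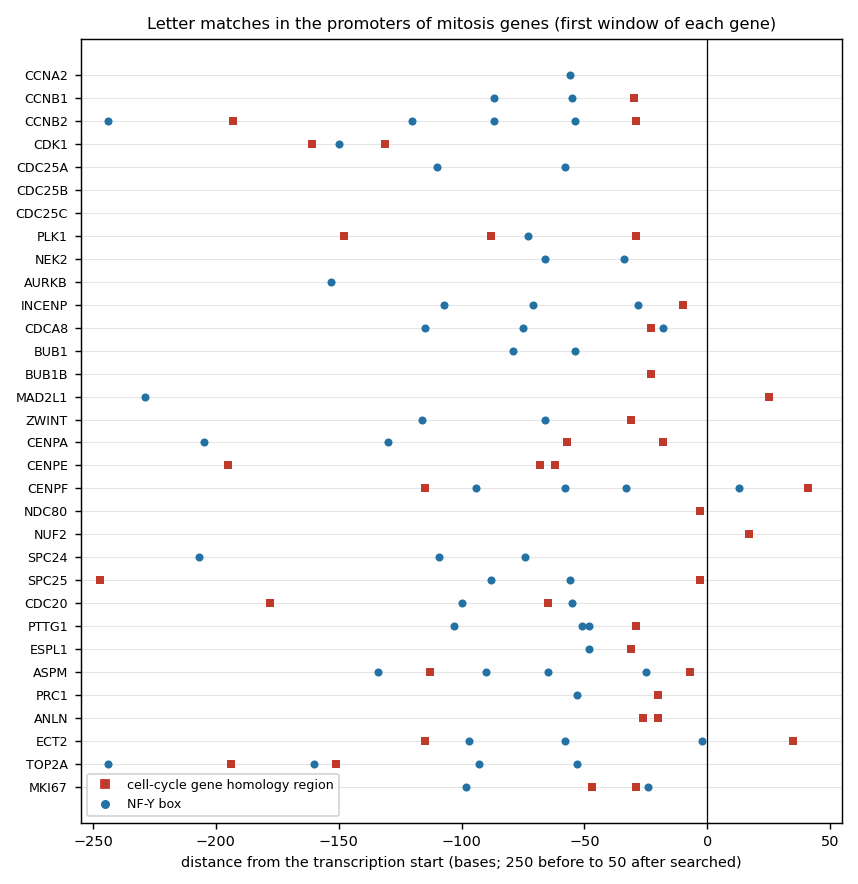
Positions of matches to the cell-cycle gene homology region (squares) and the NF-Y box (circles) in the first RefSeq window of each of 32 mitosis genes, by distance from the transcription start in bases. Most rows hold a homology region close before the start (median position -30 over all windows), with NF-Y boxes further upstream (median -82); rows without symbols had no match in their first window.

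The targeted genes were checked first. METTL3 stood at 90.5 and 90.3 CPM (read counts scaled to a common library size with edgeR's TMM factors) in the shCTR libraries and at 52.5 and 46.7 in the shMETTL3 libraries, 0.549 of the control level (adjusted p = 3.44e-07; every adjusted p here comes from the quasi-likelihood F test of edgeR, adjusted over all genes tested by the Benjamini-Hochberg method). METTL14 stood at 33.2 and 34.2 CPM in shCTR and at 19.1 and 20.6 in shMETTL14 libraries, 0.589 of the control level (adjusted p = 1.4e-05). The totals ran from 19292574 to 20115304 reads per library. The 11 erythroid markers of K562 were all detected, with sums of 1767 to 1773 CPM in shCTR, 1987 to 1989 in shMETTL3 and 1796 to 1817 in shMETTL14 libraries. These sums hide changes of single markers. Against shCTR, 6 of the 11 were called in shMETTL3 cells, 5 higher and 1 lower, and the log2 fold changes of the list ran from -0.21 to 1.77. In shMETTL14 cells 4 were called, all higher. Of all genes tested, 16.5% and 6.69% were called in these comparisons. Of 15 markers of other blood and culture cells, 10 were at or below 1 CPM in every library and FLT3 had no read. The sums of the list were 185 to 193, 134 to 135 and 193 to 203 CPM. Of the 6 tested, 4 were called in shMETTL3 cells against shCTR (LYZ, COL1A1, EPCAM and KRT18), 1 higher and 3 lower. The log2 fold changes of the 6 ran from -1.43 to 1.11. In shMETTL14 cells LYZ and EPCAM were called, 1 higher and 1 lower. The part of these shifts in the results was not tested.

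Summed over the 40 mitosis genes, the groups differed by less than the 2 control libraries did, while 6 single genes passed the test in at least 1 comparison. Together the 40 held 5062 and 4582 CPM in the shCTR libraries, 4799 and 4678 in shMETTL3 and 4856 and 4732 in shMETTL14, so that both knockdowns lay between the 2 control libraries. In shMETTL3 against shCTR cells, 4 of 40 genes (10.0%) passed an adjusted p of 0.05, 3 higher (CENPA, ESPL1 and UBE2C) and 1 lower (CDC25A). Of all genes tested, 16.5% did so, 8.73% higher and 7.73% lower. UBE2C entered the test through the knockdown libraries, where it was higher, so its call gives no support of its own for a rise. In shMETTL14 against shCTR cells, 2 of 40 (5.0%) passed, ESPL1 higher and SPC25 lower, against 6.69% of all genes, 3.43% higher and 3.26% lower. Between the knockdowns, 2 of 40 (5.0%) passed, CDC25A and PTTG1, both lower in shMETTL3 cells, against 12.1% of all genes, 6.65% higher and 5.49% lower. The 3 comparisons share libraries and are not independent of one another.

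**Figure D2:**
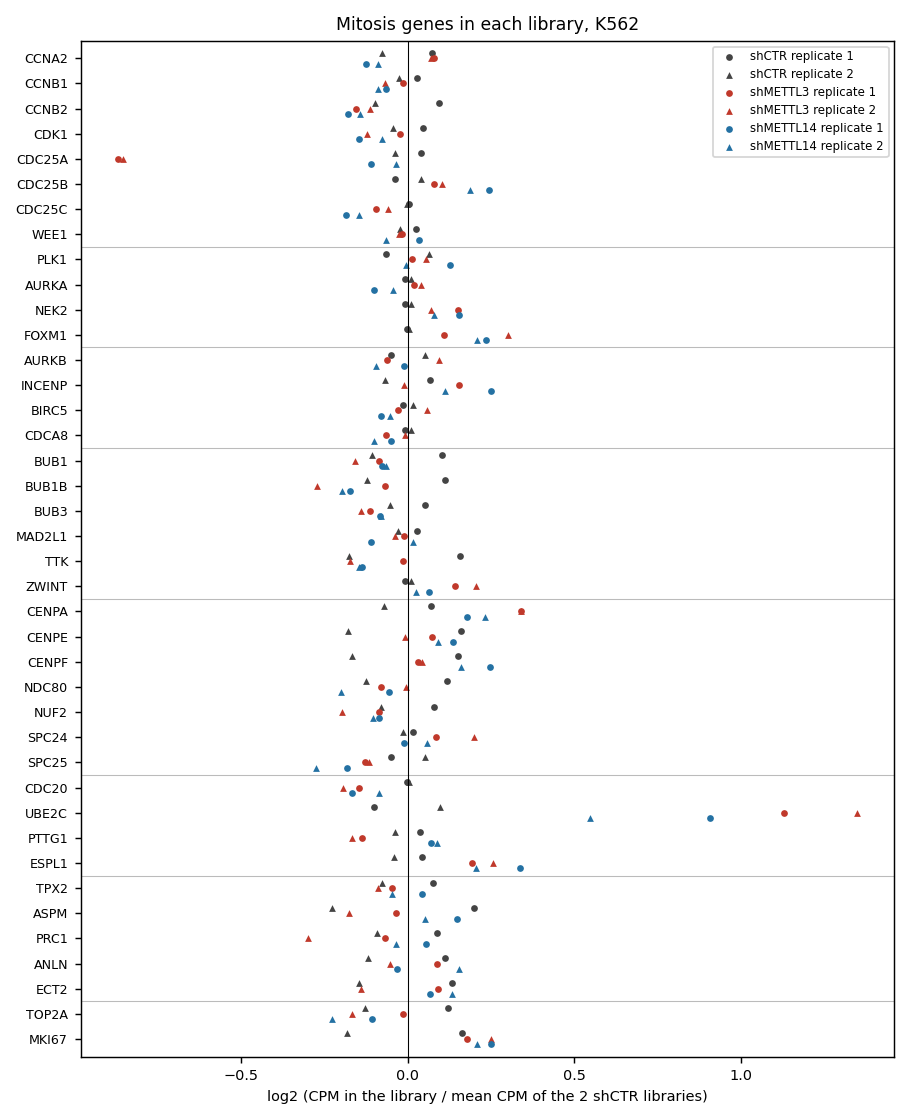
Level of each mitosis gene in each library as log2 of its CPM over the mean of the 2 shCTR libraries, grouped by role from the CDK1-cyclin switch (top) to chromosome structure and proliferation (bottom). The points of most genes lie close to 0 for all 6 libraries; CDC25A lies below -0.8 in both shMETTL3 libraries, and UBE2C, counted in few reads, spreads up to 1.35.

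Most fold changes of the 40 genes were small. The median log2 fold change of the 40 genes was -0.02 in shMETTL3 and -0.03 in shMETTL14 cells, and the median of their absolute values was 0.09 and 0.10, against 0.18 and 0.14 over all genes tested. The 95% interval lay within a 1.5-fold change in either direction for 38 of 40 genes in shMETTL3 and 39 of 40 in shMETTL14 cells, against 59.2% and 62.1% of all genes. The exceptions were CDC25A and UBE2C in the former and UBE2C in the latter. Precision had a part in these shares, since the median standard error was 0.0709 for the members in the shMETTL3 comparison and 0.114 over all genes. At an unadjusted p of 0.05, 11 of 40 members passed in each knockdown (27.5%), against 29.9% and 20.7% of all genes, so that the members' share was below the background in shMETTL3 and above it in shMETTL14 cells.

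The count of called members depended on single libraries, and so did the count over all genes tested. Leaving 1 library out leaves 1 in its group, so effect sizes are given here. In shMETTL3 cells, the members' median log2 fold change was -0.02 with all libraries. It was -0.08 without shCTR replicate 2, where most members called were lower (ASPM, BUB1, BUB1B, BUB3, CCNB2, CDC25A, NUF2, PRC1, PTTG1, TOP2A and TTK). Without shCTR replicate 1 it was 0.01, and most members called were higher (CENPA, CENPE, CENPF, ESPL1 and MKI67). Without shMETTL3 replicate 1 or 2 it was -0.03 or -0.01, and CDC25A alone kept its call, at -0.86 and -0.87. In shMETTL14 cells the median was -0.03 with all libraries, -0.07 without shCTR replicate 2 and 0.02 without shCTR replicate 1. Without shMETTL14 replicate 1 or 2 it was -0.04 or -0.02. Between the knockdowns, CDC25A alone kept its call without any 1 of the 4 knockdown libraries, at -0.83 to -0.75. Leaving out a library of a compared knockdown also lowered the count over all genes. The 2 shCTR libraries were the least alike pair: shCTR replicate 1 was above replicate 2 in 28 of 40 members, with a median log2 ratio of 0.09, while it was above in 49.2% of all genes tested with a median of -0.004. That ratio was higher for members with longer transcripts (Pearson's r = 0.65 and Spearman's rho = 0.58 over 40 genes, which share both libraries; rho = 0.16 over all genes tested). In the 4 members with transcripts of at least 8000 bases (ASPM, CENPE, CENPF and MKI67), it ran from 1.25 to 1.34, and its median over the other 36 was 1.05.

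**Figure D3:**
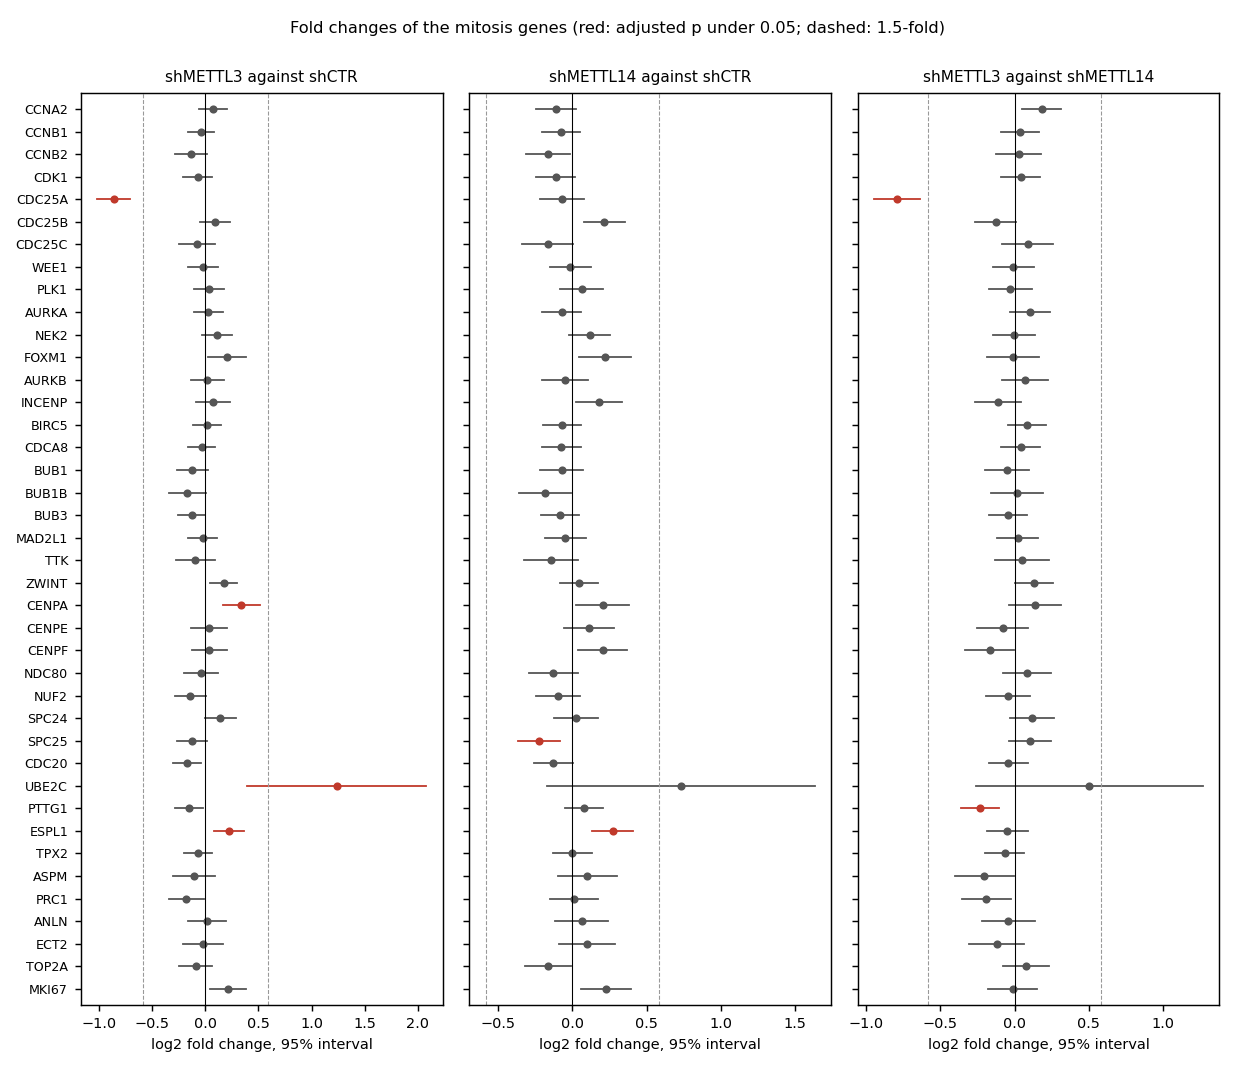
Log2 fold changes of the 40 mitosis genes with 95% intervals from edgeR for shMETTL3 against shCTR, shMETTL14 against shCTR and shMETTL3 against shMETTL14 (x axes differ in range). Red marks an adjusted p under 0.05 (4, 2 and 2 genes) and dashed lines mark 1.5-fold; all intervals but those of CDC25A and UBE2C stay between the dashed lines.

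Among the 8 genes of the CDK1-cyclin switch, CDC25A passed the test; of the other 7, CCNA2 passed in shMETTL3 cells once the GC and length trend was removed, CCNB2 in both knockdowns without shCTR replicate 2, and CDC25B in shMETTL14 cells with library size alone as scaling or without shCTR replicate 2. Between the knockdowns, CCNA2 was called higher in shMETTL3 cells with library size alone as scaling, with only the compared groups in the fit and with the GC and length trend removed. CDC25B was called in that comparison with the GC and length trend removed. CDC25A encodes a phosphatase that activates CDK2 at S-phase entry and CDK1 at mitotic entry, and it was lower in shMETTL3 cells than in both other groups. CDC25A (ENSG00000164045, chromosome 3 from 48157146 to 48188402 of GRCh38, minus strand) had 59.8 and 56.7 CPM in shCTR, 31.8 and 32.1 in shMETTL3 and 53.9 and 56.8 in shMETTL14 libraries. The shMETTL3 libraries lay below all 4 others, while the shCTR and shMETTL14 ranges overlapped. The mean was 58.2 ± 2.19 (SD, n = 2) in shCTR and 32.0 ± 0.232 (SD, n = 2) in shMETTL3 cells, a log2 fold change of -0.86 (95% interval -1.02 to -0.71, adjusted p = 1.6e-07), or 0.549 of the control. Against shMETTL14 cells it was -0.79 (adjusted p = 4.33e-07, standard error 0.0741), which tests the difference between the knockdowns. In shMETTL14 against shCTR cells it was -0.07, with an interval from -0.22 to 0.08. CDC25A passed in both of its comparisons under all 13 alternative settings, with values from -0.90 to -0.81 against shCTR.

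The other phosphatases of the family did not share this pattern of values. CDC25B, which acts at the centrosome at mitotic entry, had 63.9 and 67.3 CPM in shCTR, 69.2 and 70.4 in shMETTL3 and 77.6 and 74.7 in shMETTL14 libraries; its log2 fold change in shMETTL14 cells, 0.22, missed the threshold (adjusted p = 0.0587). CDC25C, the mitotic CDK1 phosphatase, had 32.4 and 32.3, 30.2 and 31.0, and 28.4 and 29.2 CPM in the same order. The log2 fold change of WEE1, the kinase that opposes them, was -0.02 in both knockdowns. CDK1 itself had 181 and 170 CPM in shCTR, 173 and 161 in shMETTL3 and 159 and 166 in shMETTL14 libraries. The B cyclins that activate it had log2 fold changes of -0.04 and -0.08 (CCNB1) and -0.14 and -0.16 (CCNB2) in shMETTL3 and shMETTL14 cells. Cyclin A2 (CCNA2), at 0.07 and -0.11, was the one of the 3 cyclins with values on both sides of 0, and none of the 3 passed the test.

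**Figure D4:**
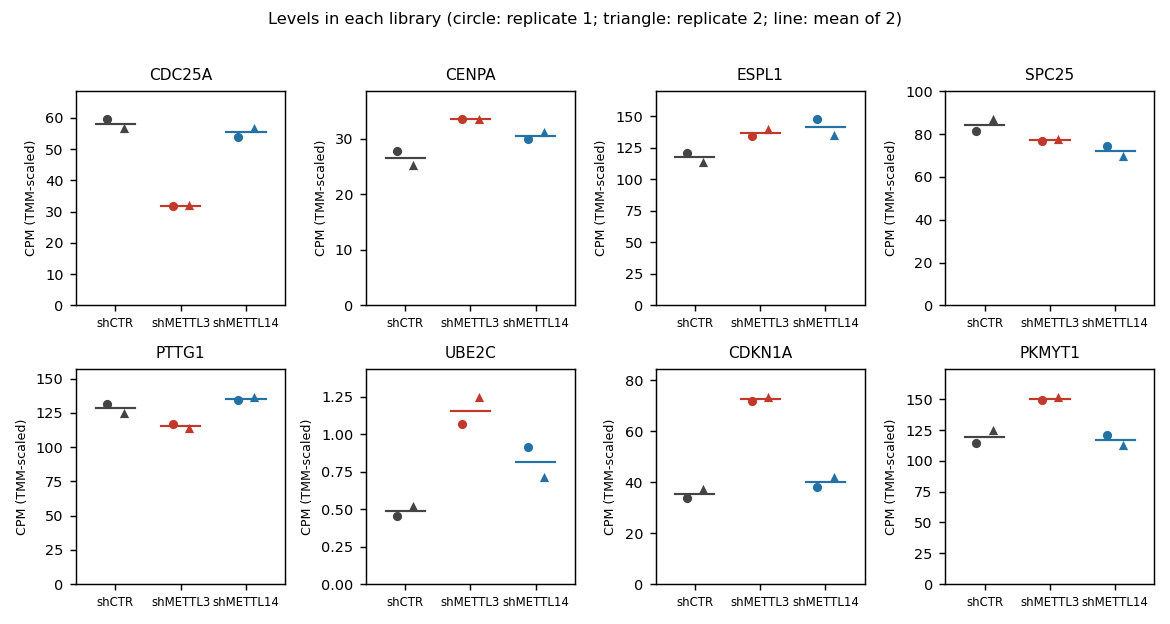
CPM in each library, with the mean of 2 as a line, for the 6 mitosis genes that passed the test in at least 1 comparison and for CDKN1A and PKMYT1; every y axis starts at 0 and has its own range. CDC25A stood at 31.8 and 32.1 in shMETTL3 libraries against 53.9 to 59.8 in the 4 others, CDKN1A at 71.9 and 73.3 against 33.6 to 41.8, and UBE2C below 1.3 in every library.

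None of the 4 genes for mitotic kinases and FOXM1 passed in any comparison, by the main edgeR fit (TMM scaling, no block, no trend removed) or DESeq2. Neither did the 4 of the chromosomal passenger complex. At an unadjusted p of 0.05, FOXM1 passed in both knockdowns and INCENP in shMETTL14 cells. In shMETTL3 cells, FOXM1 was called with library size alone as scaling and NEK2 with the GC and length trend removed. PLK1 and AURKA, kinases of centrosome maturation and spindle assembly, had log2 fold changes between -0.07 and 0.06 in the knockdowns. NEK2, which splits centrosomes, had 0.11 in shMETTL3 and 0.12 in shMETTL14 cells. FOXM1, the transcription factor that raises many of these genes in G2, had 30.2 and 30.3 CPM in shCTR, 32.6 and 37.2 in shMETTL3 and 35.6 and 34.9 in shMETTL14 libraries, with no overlap between either knockdown and the control, yet its log2 fold changes of 0.21 and 0.22 missed the threshold (adjusted p = 0.105 and 0.138). FOXM1 exons share 15.9% of their bases with ITFG2 on the opposite strand, and 12.5% of the bases of PLK1 exons overlap other genes there; whether the counting used strand is not given in the sources used here. Of the passenger complex, which corrects faulty attachments, the kinase AURKB and its partners BIRC5 (survivin) and CDCA8 (borealin) had values between -0.08 and 0.02. The scaffold INCENP had 0.07 in shMETTL3 and 0.18 in shMETTL14 cells.

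The 6 genes of the spindle checkpoint did not pass in any comparison by the main edgeR fit or by DESeq2 either. Against shCTR, BUB3 and ZWINT in shMETTL3 and BUB1B in shMETTL14 cells passed an unadjusted p of 0.05. The checkpoint proteins encoded by BUB1, BUB1B, BUB3, MAD2L1 and TTK bind unattached kinetochores or form the inhibitor of the APC/C, and their log2 fold changes were all below 0, from -0.17 to -0.03 in shMETTL3 and from -0.19 to -0.05 in shMETTL14 cells. BUB3 was the most abundant of them, at 212 and 197 CPM in shCTR, 189 and 185 in shMETTL3 and 193 in both shMETTL14 libraries. Its log2 fold change was -0.13 in shMETTL3 cells (adjusted p = 0.163). ZWINT, which links the checkpoint to the outer kinetochore, went the other way in value, with 128 and 130 CPM in shCTR and 142 and 148 in shMETTL3 libraries (log2 fold change 0.17, adjusted p = 0.0608) and 0.04 in shMETTL14 cells. ZWINT was called higher in shMETTL3 cells with library size alone, with the replicate block and with the GC and length trend removed. Between the knockdowns it was called with the GC and length trend removed. BUB1, BUB1B, BUB3 and TTK were called lower in shMETTL3 cells without shCTR replicate 2. Of BUB1B exons, 10.2% of bases belong also to the readthrough gene BUB1B-PAK6 on the same strand, so its reads may have been split in the counting.

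At the centromere and outer kinetochore, 1 of 7 genes rose in shMETTL3 cells and 1 of 7 fell in shMETTL14 cells. Over all genes tested, 8.73% were called higher in the former and 3.26% lower in the latter, so 1 call in so short a list says little about the list. The gene that rose, CENPA (ENSG00000115163, chromosome 2 from 26764289 to 26801067, plus strand), encodes the histone H3 variant that marks the centromere. It had 27.8 and 25.2 CPM in shCTR, 33.6 in both shMETTL3 and 30.0 and 31.2 in shMETTL14 libraries, so both knockdowns lay above the control range. It rose by 0.34 on the log2 scale in shMETTL3 cells (adjusted p = 0.00946, standard error 0.0851) and its value was 0.20 in shMETTL14 cells (adjusted p = 0.177). The difference between the knockdowns, 0.14, had an interval from -0.04 to 0.31. The call in shMETTL3 cells was lost when either shMETTL3 library was left out, which leaves 1 library in that group. Its log2 fold change stayed at 0.34 in both of these fits. SLC35F6 shares 7.0% of the bases of CENPA exons on the same strand.

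The gene that fell was SPC25, a subunit of the NDC80 complex, which binds microtubule ends. SPC25 (ENSG00000152253, chromosome 2 from 168834132 to 168913371, minus strand) had 81.2 and 87.2 CPM in shCTR, 77.0 and 77.6 in shMETTL3 and 74.2 and 69.6 in shMETTL14 libraries, with the control libraries above the 4 others. The log2 fold change of SPC25 was -0.23 in shMETTL14 cells (adjusted p = 0.0489, standard error 0.0678) and -0.12 in shMETTL3 cells (adjusted p = 0.23). This call was near the threshold and was lost in 10 of 13 alternative settings, among them DESeq2 (adjusted p = 0.0929) and leaving out shCTR replicate 2 or any 1 of the 4 knockdown libraries. The partners of SPC25 in the complex did not pass in the main fit: NDC80 had -0.13 and NUF2 -0.10 in shMETTL14 cells, and SPC24 had 0.02. NDC80 was called lower in shMETTL14 cells without shCTR replicate 2. CENPE, the kinetochore motor, had values of 0.03 (shMETTL3) and 0.11 (shMETTL14) against shCTR. CENPF, which binds CENPE at the kinetochore, had 207 and 166 CPM in shCTR, 190 and 192 in shMETTL3 and 221 and 208 in shMETTL14 libraries. The spread between the control libraries was wider than the distance of shMETTL3 from either. Between the knockdowns, CENPF was called lower in shMETTL3 cells with only the compared groups in the fit and with the GC and length trend removed. Against shCTR, it was called higher in shMETTL14 cells with that trend removed and without shCTR replicate 1.

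Of the 4 genes of anaphase onset, 2 were called higher in shMETTL3 cells and 1 in shMETTL14 cells, where 8.73% and 3.43% of all genes were. Of the 2, UBE2C had 9 to 25 reads per library and entered the test through its knockdown libraries. ESPL1 (ENSG00000135476, chromosome 12 from 53268299 to 53293643, plus strand) encodes separase, the protease that cuts cohesin. It had 121 and 114 CPM in shCTR, 134 and 140.0 in shMETTL3 and 148 and 135 in shMETTL14 libraries, and the 4 knockdown libraries lay above both controls. ESPL1 rose by 0.22 on the log2 scale in shMETTL3 cells (adjusted p = 0.0253, standard error 0.0665) and by 0.27 in shMETTL14 cells (adjusted p = 0.0165, standard error 0.0664). These 2 values share their controls, and the knockdowns differed by -0.05 with an interval from -0.19 to 0.09. The rise in shMETTL3 cells was 0.09 after a trend with GC content and length was removed (adjusted p = 0.291). The call was also lost without shCTR replicate 2, where the log2 fold change was 0.18. It was lost as well without shMETTL3 replicate 1 (log2 fold change 0.26) or 2 (0.19), fits with 1 library in that group. The call in shMETTL14 cells was lost without shMETTL14 replicate 1, where the log2 fold change was 0.20.

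PTTG1 encodes securin, the inhibitor of separase. It (ENSG00000164611, chromosome 5 from 160421822 to 160428744, plus strand) had 132 and 125 CPM in shCTR, 116 and 114 in shMETTL3 and 135 and 136 in shMETTL14 libraries. The shMETTL3 libraries were the lowest and the shMETTL14 libraries the highest, without overlap. Between the knockdowns, PTTG1 was lower in shMETTL3 cells, with a log2 fold change of -0.23 (adjusted p = 0.0175, standard error 0.0623), while against shCTR it was -0.15 in shMETTL3 (adjusted p = 0.101) and 0.08 in shMETTL14 cells (adjusted p = 0.513). The call between the knockdowns was lost when any 1 of their 4 libraries was left out, which leaves 1 library in a group. The log2 fold change in these fits ran from -0.24 to -0.21. CDC20, the activator of the APC/C that targets securin, stood at -0.17 on the log2 scale in shMETTL3 (adjusted p = 0.0718) and -0.13 in shMETTL14 cells. CDC20 was called in shMETTL3 cells with the GC and length trend removed.

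UBE2C encodes the ubiquitin-conjugating enzyme of the APC/C, and it was counted in very few reads. It had 9 and 10 reads in shCTR, 21 and 25 in shMETTL3 and 18 and 14 in shMETTL14 libraries, which is below 1.3 CPM in each. The shCTR reads alone would not have passed the filter, so UBE2C was tested because of the knockdown libraries, where it was higher. Its log2 fold change in shMETTL3 cells was 1.23, with an interval from 0.39 to 2.08 and an adjusted p of 0.0414. The call was lost in 8 of the 12 alternative settings that gave an adjusted p, among them each library left out in turn. No exonic base of UBE2C is shared with another GENCODE gene, and why so few reads were assigned to it was not tested.

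The remaining 7 members did not pass in any comparison by the main edgeR fit (TMM scaling, no block, no trend removed) or by DESeq2. Against shCTR, PRC1 and MKI67 in shMETTL3 and TOP2A and MKI67 in shMETTL14 cells passed an unadjusted p of 0.05. TOP2A, the topoisomerase that untangles chromosomes, was the most abundant of the 40, at 615 and 517 CPM in shCTR, 559.7 and 504 in shMETTL3 and 525 and 483 in shMETTL14 libraries. TPX2, which activates AURKA on the spindle, had 321 and 289 CPM in shCTR, 295 and 286 in shMETTL3 and 314 and 295 in shMETTL14 libraries. MKI67, the proliferation marker Ki-67 that coats mitotic chromosomes, had 263 and 207, 265 and 279, and 279 and 271 CPM in the same order. The knockdown libraries of MKI67 lay above both controls, yet the controls were far apart, and its log2 fold changes of 0.21 and 0.23 missed the threshold (adjusted p = 0.0747 and 0.0989). MKI67 was called higher in both knockdowns without shCTR replicate 1, and in shMETTL3 cells also with library size alone, while TOP2A was called lower in both without shCTR replicate 2. The spindle pole gene ASPM had 154 and 114 CPM in shCTR, a range that held all shMETTL3 and shMETTL14 libraries. Between the knockdowns, however, ASPM was called lower in shMETTL3 cells with only the compared groups in the fit and with the GC and length trend removed. All 5 genes of spindle and cytokinesis (TPX2, ASPM, PRC1, ANLN and ECT2) had values below 0 in that comparison, with a median log2 fold change of -0.12. An unadjusted p of 0.05 was passed there by 2 of the 5. The cytokinesis genes ANLN and ECT2 had log2 fold changes between -0.02 and 0.10 in the knockdowns. PRC1, which bundles the central spindle, had -0.18 in shMETTL3 and 0.01 in shMETTL14 cells. However, 58.4% of its exonic bases are shared with other GENCODE genes, so its count is uncertain. With the replicate block, PRC1 was called lower in shMETTL3 cells, both against shCTR and against shMETTL14 cells. It was called between the knockdowns also with the GC and length trend removed. The block also called MKI67 higher in both knockdowns and TOP2A lower in shMETTL14 cells.

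Levels between genes were compared per kilobase of the longest GENCODE transcript, as a mean over the 6 libraries. PTTG1 had the highest level, 118 CPM per kilobase, followed by TOP2A at 92.7, CDK1 at 86.5 and TPX2 at 83.3. The range over libraries was 107 to 127 for PTTG1 and 84.0 to 107 for TOP2A, which overlap at their ends, and 81.4 to 93.0 for CDK1 and 79.5 to 89.1 for TPX2, which overlap. CDC25A was among the low genes at 12.8, and UBE2C was last at 0.898. GGACT, the most frequent form of the motif at which METTL3 and METTL14 methylate mRNA, occurred at a median of 0.831 per kilobase of the members' longest transcripts against 0.909 over all genes tested. CENPA had the highest density, 4.13 per kilobase from 6 occurrences, and CDC25A had 1.59 from 6. No m6A was measured in these libraries.

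The other genes of the pathway were described from 6 lists with 115 genes, all tested. In shMETTL3 cells 15 passed (7 higher and 8 lower, 13.0%), in shMETTL14 cells 6 passed, all lower (5.22%), and between the knockdowns 13 passed, 12 of them higher in shMETTL3 cells (11.3%); the shares over all genes were 16.5%, 6.69% and 12.1%. The partners and regulators of CDK1 held the largest change of these 115 genes. Of these 15 partners and regulators, 2 passed in shMETTL3 cells (13.3%) and 1 in shMETTL14 cells (6.67%), near or below the shares over all genes. Between the knockdowns 4 passed, all higher in shMETTL3 cells (26.7%, against 12.1% of all genes and 6.65% higher). They were CDKN1A, PKMYT1, GADD45A (0.31) and ENSA (0.24), and the last 2 lost the call in 1 and 4 of 13 settings. CDKN1A, the CDK inhibitor p21, had 33.6 and 37.4 CPM in shCTR, 71.9 and 73.3 in shMETTL3 and 37.9 and 41.8 in shMETTL14 libraries. It rose by 1.03 on the log2 scale in shMETTL3 cells (adjusted p = 2.94e-08) and differed by 0.86 between the knockdowns (adjusted p = 2.18e-07). PKMYT1, the kinase that opposes CDC25 phosphatases at the membrane, had 115 and 125 CPM in shCTR, 149 and 152 in shMETTL3 and 121 and 113 in shMETTL14 libraries, and rose in shMETTL3 cells (log2 fold change 0.33, adjusted p = 0.00177). Both calls held in all 13 alternative settings. In shMETTL14 cells, CKS1B, a CDK-binding subunit, was the 1 of 15 that passed (-0.31, adjusted p = 0.00645), a call lost without shMETTL14 replicate 1 (adjusted p = 0.192).

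**Figure D5:**
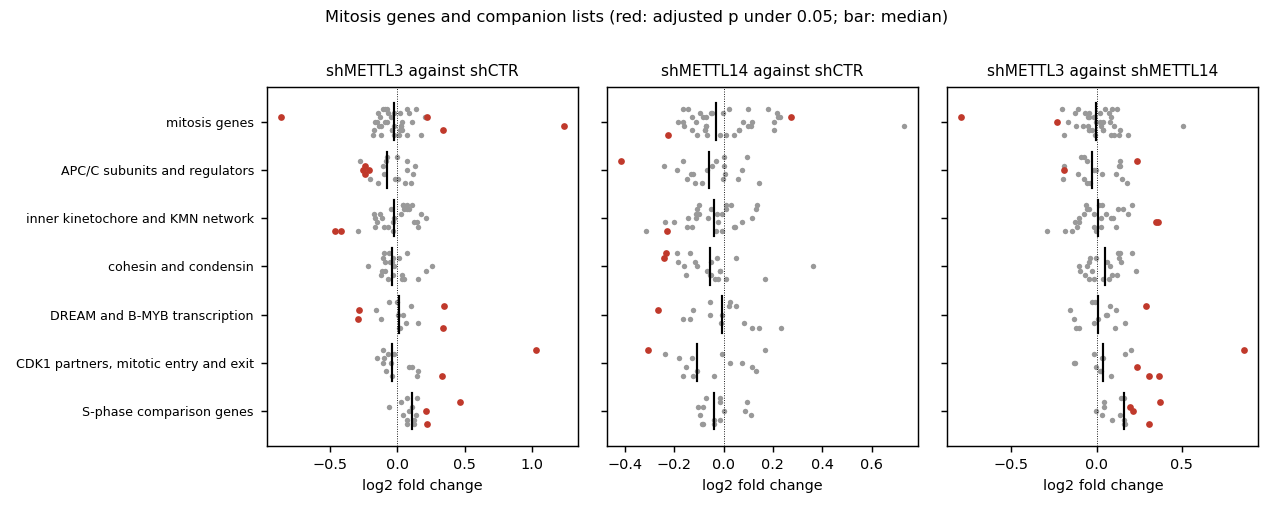
Log2 fold changes of the mitosis genes and of 6 companion lists in the 3 comparisons, 1 point per gene, with red for an adjusted p under 0.05 and a bar at the list's median (x axes differ in range). In shMETTL3 against shCTR cells, 4 APC/C genes passed on the lower side, and CDKN1A at 1.03 and CDC25A at -0.86 lie far from the other named genes, with UBE2C at 1.23 from few reads.

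Among 20 subunits and regulators of the APC/C, 4 fell in shMETTL3 cells and none rose, where 16.5% of all genes were called in either direction and 7.73% lower, so that the total share was near the background. ANAPC5 had -0.26 (adjusted p = 0.00546), ANAPC4 and ANAPC7 each had -0.24, and CDC16 had -0.21 (adjusted p = 0.0493), and all 4 encode parts of the complex itself. These falls were small, and the 4 calls were lost in 2, 6, 4 and 10 of 13 alternative settings, all 4 of them without shMETTL3 replicate 1 or without shMETTL3 replicate 2 (adjusted p from 0.0537 to 0.403). In shMETTL14 cells 1 of 20 passed, ANAPC10 at -0.42 (adjusted p = 0.0262), which encodes a substrate-binding subunit, and the call was lost in 5 of 13 settings, without shCTR replicate 1 and without either shMETTL14 library among them (adjusted p from 0.139 to 0.246). Of 28 genes of the inner kinetochore and KMN network, CENPC (-0.46, adjusted p = 0.00256), which binds the CENPA nucleosome, and MIS18A (-0.42, adjusted p = 0.000298), which prepares centromeres for new CENPA, fell in shMETTL3 cells. Calls made up 7.14% of this list in shMETTL3 and 3.57% in shMETTL14 cells, below the 16.5% and 6.69% of all genes. MIS18A had 64.5 and 62.7 CPM in shCTR, 47.6 in both shMETTL3 and 54.5 and 53.9 in shMETTL14 libraries, and it also fell in shMETTL14 cells (-0.23, adjusted p = 0.0439). No gene of cohesin and condensin (22) passed in shMETTL3 cells by edgeR or DESeq2, while 4 had an unadjusted p under 0.05. In shMETTL14 cells the condensin II genes NCAPD3 (-0.24) and NCAPG2 (-0.23) fell, with adjusted p of 0.0285 and 0.0478. They were 9.09% of the list of 22, against 6.69% of all genes called in that comparison and 3.26% called lower. The call of CENPC was lost with DESeq2 (adjusted p = 0.0731) and without shMETTL3 replicate 2 (adjusted p = 0.106). Those of MIS18A, NCAPD3 and NCAPG2 in shMETTL14 cells were lost in 9, 8 and 8 of 13 settings, which included leaving out shCTR replicate 1 or any 1 of the 4 knockdown libraries.

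Of 15 genes of DREAM and B-MYB transcription, 2 rose and 2 fell in shMETTL3 cells (26.7%), against 16.5% of all genes, 8.73% higher and 7.73% lower. In shMETTL14 cells 1 passed (6.67%), against 6.69% of all genes. MYBL2, which encodes B-MYB, had 134 and 146 CPM in shCTR and 172 and 182 in shMETTL3 libraries (log2 fold change 0.34, adjusted p = 0.00135), and its log2 fold change in shMETTL14 cells was 0.05. E2F5 rose as well (0.34, adjusted p = 0.038), while RBL2, the pocket protein p130 of DREAM, fell (-0.29, adjusted p = 0.0174) together with the E2F partner TFDP2 (-0.28, adjusted p = 0.0047). In shMETTL14 cells RBBP4 fell (-0.27, adjusted p = 0.00919), a call lost without either shMETTL14 library. For comparison with an earlier phase of the cycle, 15 S-phase genes were counted: 3 rose in shMETTL3 cells, RRM2 (0.47, adjusted p = 3.3e-05), CDC6 (0.22, adjusted p = 0.0297) and GINS2 (0.22, adjusted p = 0.0318), where 16.5% of all genes were called in either direction and 8.73% higher, and the median of the list was 0.11. E2F5, RBL2, TFDP2, CDC6 and GINS2 lost these calls in 8, 3, 1, 7 and 8 of 13 settings, all of them without shMETTL3 replicate 2 (adjusted p from 0.0764 to 0.304); E2F5, RBL2 and GINS2 also did without shCTR replicate 1, CDC6 without shCTR replicate 2, E2F5, CDC6 and GINS2 without shMETTL3 replicate 1 or either shMETTL14 library. In shMETTL3 cells DESeq2 called only 1 of the 15 S-phase genes, RRM2, with an adjusted p of 0.0763 for CDC6 and 0.0698 for GINS2. It also lost E2F5 there (adjusted p = 0.195). In shMETTL14 cells, edgeR and DESeq2 each called 0 of 15, 0 had an unadjusted p under 0.05, and the median was -0.04. RRM2, the small subunit of ribonucleotide reductase, held its call in all 13 alternative settings, and it was higher in shMETTL3 cells also against shMETTL14 cells, by 0.37 on the log2 scale (adjusted p = 0.000323). Between the knockdowns 4 of the 15 S-phase genes passed, all higher in shMETTL3 cells (26.7%, against 12.1% of all genes and 6.65% higher): CDC6 (0.31), GINS2 (0.21) and MCM6 (0.19) joined RRM2, and they lost the call in 2, 6 and 7 of 13 settings, all 3 of them without shMETTL3 replicate 1 and without shMETTL14 replicate 2. An unadjusted p under 0.05 was reached by 10 of the 15 (66.7%) and by 4417 of all 17686 genes, and the list's median was 0.16.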

How the data were processed

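RNA-seq of K562 cells was analysed in 6 libraries, 2 each of shCTR, shMETTL3 and shMETTL14, grouped by the submitters' labels. The counts deposited by the authors are unnormalized whole numbers of reads for each gene, from oligo(dT)-enriched mRNA; the submitters' processing notes name HTSeq 0.6.1 and hg38, and the aligner and annotation are not given in the sources used here. Of 61661 rows, 986 had identifiers outside Ensembl (0.635% to 0.703% of the reads) and were kept in library sizes. Totals of 19292574 to 20115304 reads set the precision, and reads that are PCR copies are not independent molecules. Symbols were matched by Ensembl identifier through a gene name table and GENCODE release 29 (GRCh38), which also gave positions, lengths, GC content and exon overlap.

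Genes were filtered (filterByExpr, minimum count 10), scaled by TMM and tested with edgeR 4.0.16 under R 4.3.3 in 1 quasi-likelihood fit over the 6 libraries, with Benjamini-Hochberg adjustment over 17686 genes and a threshold of 0.05. On 5 simulated data sets drawn from each gene's mean over the libraries, with 200 genes changed 2-fold between shMETTL3 and shCTR and 17298 genes tested on average, 77.9% of changed genes were called, 97.2% where the mean reached 50 counts, and 3.82% of calls were false. The simulation gave all groups the same spread, while the mean chi-square per gene between the 2 libraries of a group was 5.51 in shCTR, 3.10 in shMETTL3 and 2.59 in shMETTL14. Most changes of the members were also far smaller than 2-fold, so the simulated rates do not describe the calls reported here. The members and lists were chosen with earlier results of these data known. Every member could be named, and those past the threshold in any comparison and the 5 most abundant were given by library; of each companion list at most the 4 largest changes past the threshold per comparison were named. The alternatives were DESeq2 1.42.0, other scalings, no filter, fewer groups in the fit, a replicate block, a GC and length trend removed (mgcv 1.9.3) and each library left out.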

Additional observations from a re-analysis of the deposited data

How the results depend on the processing

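Of the calls on mitosis genes, that of CDC25A held under every alternative tried, in both of its comparisons, and no call changed direction. The number of members called in shMETTL3 against shCTR cells, 4, became 7 with library size alone as scaling, 2 with no filter, 7 with the GC and length trend removed and 1 to 12 with a library left out. In shMETTL14 cells, 2 became 1 with DESeq2, with no filter or with only the compared groups in the fit, and 0 to 7 with a library left out. Between the knockdowns, 2 became 5 with only the compared groups, 9 with the GC and length trend removed and 1 to 5 with a library left out. Over all genes, the counts of 2912, 1184 and 2148 became 1757, 712 and 1242 with DESeq2, which was run without the low-count filter (37080 genes against 17686), 2185, 766 and 1631 in edgeR with no filter, and 1102 to 3569, 341 to 1913 and 942 to 2953 with a library left out. The 37080 genes are those with a p-value from DESeq2. Its own filter on low mean counts then left some of them, such as UBE2C in shMETTL3 against shCTR cells, without an adjusted p. Its adjustment therefore did not run over all 37080. Library size alone turned the splits of higher to lower calls from 1544 to 1368, 607 to 577 and 1177 to 971 into 2158 to 858, 743 to 443 and 1399 to 754. The causes of these shifts were not tested. The replicate numbers were not taken as pairs: deviations of libraries with the same number correlated at 0.174 for shCTR and shMETTL3, -0.025 for shCTR and shMETTL14 and -0.035 for shMETTL3 and shMETTL14 over 12767 genes. With the replicate block, 7, 5 and 3 members and 3264, 1459 and 2478 genes were called; the block added MKI67, PRC1 and ZWINT in shMETTL3 cells, CDC25B, MKI67 and TOP2A in shMETTL14 cells and PRC1 between the knockdowns. At this depth a gene with as few reads as UBE2C could be judged only for large changes.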
